A study of Mus musculus with 64 samples.

Results

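A set of 8 resting libraries measured how gene expression differed 14 and 28 days after a drug dose that lets Foxp3 protein be made from a silenced allele. Cells that use this allele lack the protein before the allele is switched on. When each cell began to make Foxp3 was not measured. These late libraries were taken by their titles, as resting cells of the reversible-allele experiment at day 14 or day 28, and are 8 of the 64 libraries of the series. Of these, 4 had gained Foxp3 (plusFoxp3) and 4 had not (minusFoxp3), with 2 replicates per group and day.

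Every one of these mice carried the Foxp3 LSL allele, in which a Thy1.1 reporter and a STOP cassette between loxP sites keep Foxp3 from being made and a GFP reporter is joined to Foxp3 once the cassette is cut out. PlusFoxp3 cells had the genotype Foxp3-LSLCD4-CreERT2, in which CreERT2 is a Cre recombinase placed under the Cd4 locus and active only with 4-hydroxytamoxifen (4-OHT), and were sorted as GFP+ cells. MinusFoxp3 cells had the genotype Foxp3-LSLCD4-WT, were sorted as GFP- Thy1.1+ cells of littermates, and received the same single dose of 4-OHT. Cells came from spleen and lymph nodes and were labelled resting Treg wannabe cells, that is, cells that transcribe the Foxp3 locus without functional Foxp3 protein, sorted as resting by a gate that includes low CD44. By the methods of the study the mice were heterozygous females, which also hold ordinary Treg cells that use the wild-type allele. The study gives the ages of its mice as a whole, newborn or young adult, and the age of each group used here was not found. Other resting libraries served for comparison: 4 without treatment (day 0), 8 collected early (days 3 and 7) and 2 of untreated Foxp3GFP Treg cells (GFP Treg), in which a GFP reporter marks an intact Foxp3. All replicates of a group were labelled as separate samples.

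Foxp3 is the transcription factor that defines regulatory T (Treg) cells, which restrain other T cells. Treg cells bind interleukin-2 through a receptor of high affinity without making the cytokine, present TGF-beta at their surface, and display inhibitory receptors. Foxp3 acts on many genes in both directions, among them Il2ra, the alpha chain of the interleukin-2 receptor, and Tcf7, a factor of naive T cells.

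The 8 libraries held 43302798 to 57049049 read pairs assigned to genes. Levels are given as counts per 1e6 of these read pairs (CPM). Cd44, low in the resting gate, was at 78.2 to 99.2 CPM in minusFoxp3 and 88.7 to 121 CPM in plusFoxp3 libraries and did not pass the test between the groups. The summed CPM of 6 genes of activated cells (Cd44, Itgae, Icos, Cxcr3, Klrg1 and S100a4) was 199 to 320 in minusFoxp3 and 383 to 899 in plusFoxp3 libraries, and 934 to 936 in GFP Treg cells, and 4 of the 6 were called higher. Itgae, Icos, Klrg1 and S100a4 are also on the Treg signature list used below. This sum therefore cannot tell activation apart from a rise of Treg genes. Among tested markers of other cells, 1 of 11 of B cells (Ighm), none of 10 of myeloid cells, 1 of 8 of CD8 T and NK cells (Klrb1c) and none of 4 of thymocytes was called, and 7 of 11 B cell and 11 of 14 myeloid markers had a mean under 1 CPM. One library stood apart, replicate 1 of plusFoxp3 at day 28, with Hbb-bs at 8.24 CPM and Hba-a1 at 8.74 CPM, haemoglobin genes of red blood cells that stayed under 1 CPM in the other 7. In bulk libraries a smaller share of cells of one type and less RNA per cell cannot be told apart.

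Foxp3 itself (chromosome X, 7439883 to 7461484, GRCm39) was read first as a check of the labels. It was at 56.7, 47.3, 55.5 and 59.5 CPM in minusFoxp3 and 612, 614, 526 and 615 CPM in plusFoxp3 libraries, listed as days 14 and 28 with replicates 1 and 2 of each, the order used for every value below. All plusFoxp3 libraries lay far above all minusFoxp3 libraries, with a log2 fold change of 3.48 ± 0.12 (SE), adjusted p = 1.9e-06. In GFP Treg cells it was at 657 and 635 CPM. Thy1, which matches the reporter of the unexcised cassette as well as the cells' own gene, went the other way with 446, 344, 394 and 375 CPM in minusFoxp3 and 55.1, 63.1, 101 and 64.3 CPM in plusFoxp3 libraries (log2 fold change -2.44 ± 0.16 (SE), adjusted p = 0.00017). At day 0 Thy1 was at 527 and 404 CPM in untreated minusFoxp3 and 435 and 426 CPM in untreated plusFoxp3 libraries. Of 12 genes tested within 100 kb of Thy1, 3 were called, Thy1 and its neighbours Gm39323 and E230034D01Rik. Both of these genes without a known protein fell with it, by 2.99 and 3.30 on the log2 scale.

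Genes tied to the other engineered loci were read next, and the cause of each difference was not tested. Esr1, the oestrogen receptor gene whose ligand-binding part is joined to Cre in CreERT2, was at 4.34, 2.67, 2.98 and 2.66 CPM in minusFoxp3 and 20.4, 19.4, 16.4 and 14.1 CPM in plusFoxp3 libraries (log2 fold change 2.52 ± 0.19 (SE), adjusted p = 0.00040). It differed before treatment too, with 3.21 and 2.93 CPM in untreated minusFoxp3 and 26.1 and 17.5 CPM in untreated plusFoxp3 libraries. Untreated plusFoxp3 libraries carry the genotype only and had not gained Foxp3. Their Foxp3 level differed by less than the spread of replicates, with 77.0 and 67.9 CPM in untreated minusFoxp3 and 80.7 and 70.5 CPM in untreated plusFoxp3 libraries. Cd4, the co-receptor gene at which CreERT2 sits, was at 567, 665, 708 and 672 CPM in minusFoxp3 and 408, 347, 316 and 335 CPM in plusFoxp3 libraries, a log2 fold change of -0.85 ± 0.12 (SE), adjusted p = 0.0080. Cd4 before treatment was at 463 and 644 CPM in untreated minusFoxp3 and 447 and 449 CPM in untreated plusFoxp3 libraries. Esr1 is the single gene called between the untreated genotypes. Ppp1r3f, which overlaps the Foxp3 gene on chromosome X, was called higher with a log2 fold change of 1.66 ± 0.15 (SE), adjusted p = 0.0013. The counts did not use strand, so reads of these overlapping genes cannot be told apart. Of 9 genes tested within 100 kb of Foxp3, 3 were called. The third besides Foxp3 and Ppp1r3f was Cacna1f, a calcium channel gene that does not overlap Foxp3 (log2 fold change 1.52, adjusted p = 0.0232). Flicr, a non-coding RNA gene that also overlaps Foxp3, was not called (log2 fold change 0.18, adjusted p = 0.619). Esr1, Ppp1r3f and the remaining genes of this check were chosen after their values were seen.

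Late Foxp3 expression went with 403 called genes of 20414 tested, 1.97% of them. Each count of called list members below is to be set beside this share. A gene was called at an adjusted p under 0.05 in edgeR's quasi-likelihood test with day as a block. Of these, 259 were higher (1.27%) and 144 lower (0.705%) in plusFoxp3 cells, with median log2 fold changes of 1.56 and -1.16. Higher genes moved further, since 174 of the 259 rose at least 2-fold and 88 at least 4-fold, against 91 and 28 of the 144 lower genes. The CPM of the 4 plusFoxp3 and the 4 minusFoxp3 libraries did not overlap for 246 of the higher and 142 of the lower genes. Over all tested genes the 2 groups did not overlap in 10.4%. The number called rested on single libraries. It was 218 without day 14 minusFoxp3 replicate 2, 165 and 159 without day 28 minusFoxp3 replicates 1 and 2, 210 without day 14 plusFoxp3 replicate 1 and 225 without day 28 plusFoxp3 replicate 1. Without both plusFoxp3 replicates 1 it was 151, of which 133 are among the 403.

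**Figure D1:**
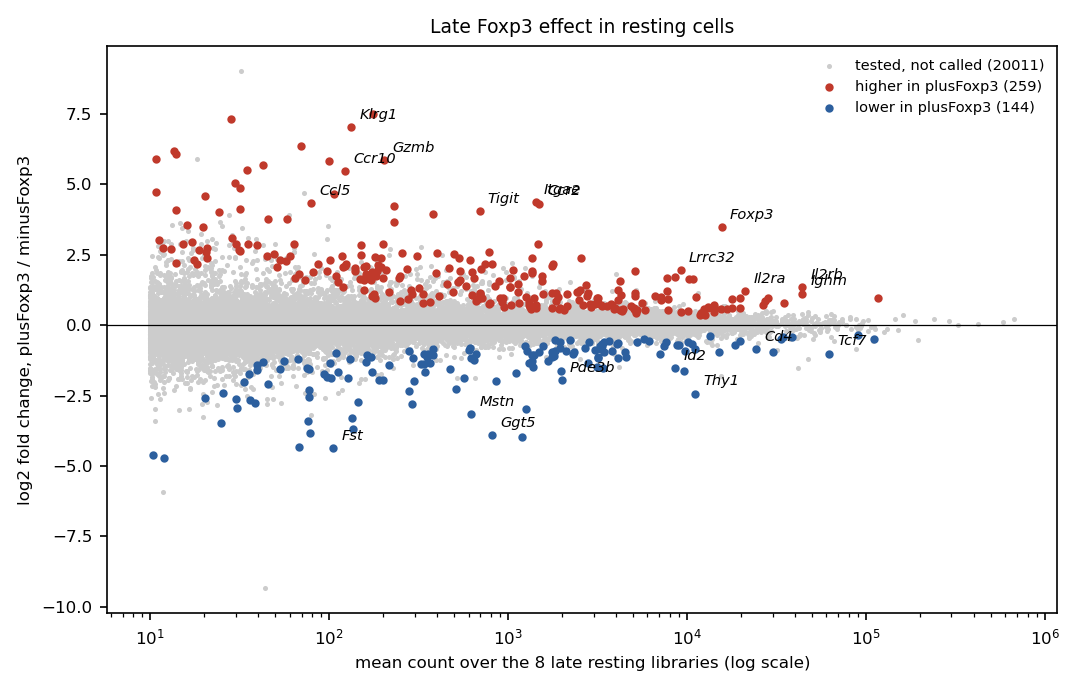
Log2 fold change of plusFoxp3 over minusFoxp3 cells (y axis) against the mean count over the 8 late resting libraries (x axis, log scale) for each tested gene. Red points are the 259 genes called higher, blue points the 144 called lower and grey points genes not called; Foxp3, Il2ra and Il2rb change at high counts, Klrg1, Gzmb and Ccr10 at low ones.

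Of 40 genes of the Treg signature tested, 21 rose and none fell, 52.5% against 1.97% of all genes, with a median log2 fold change of 0.92 against 0.01 over all genes. Of the 40, 38 had a positive sign. Il2ra, the alpha chain of the interleukin-2 receptor, was at 261, 288, 279 and 258 CPM in minusFoxp3 and 652, 596, 540.2 and 621 CPM in plusFoxp3 libraries (log2 fold change 1.20 ± 0.10 (SE), adjusted p = 0.00060). Il2rb, the beta chain that carries the signal, was at 509.9, 577, 540.2 and 459.8 CPM in minusFoxp3 and 1314, 1319, 1248 and 1290.3 CPM in plusFoxp3 libraries (log2 fold change 1.36 ± 0.09 (SE), adjusted p = 0.00017). Both chains were higher in every plusFoxp3 library than in any minusFoxp3 library, and neither reached the 2 GFP Treg libraries, at 789 and 725 CPM for Il2ra and 1861 and 1574 CPM for Il2rb. Lrrc32, which encodes GARP, the surface anchor of latent TGF-beta, was at 81.9, 85.9, 90.1 and 62.5 CPM in minusFoxp3 and 325, 311, 249 and 318 CPM in plusFoxp3 libraries, a log2 fold change of 1.96 ± 0.14 (SE), adjusted p = 0.00023. Izumo1r, which encodes folate receptor 4, was at 422, 384, 440.1 and 391 CPM in minusFoxp3 and 685, 624, 817 and 776 CPM in plusFoxp3 libraries (log2 fold change 0.87 ± 0.09 (SE), adjusted p = 0.0016). It was the smallest of these changes, and again no library overlapped.

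Further called members of the signature spanned receptors, enzymes and secreted proteins. Gpr83, an orphan-type G protein-coupled receptor known from Treg cells, ranged over 49.4 to 137 CPM in minusFoxp3 and 228 to 282 CPM in plusFoxp3 libraries. Nrp1, the semaphorin co-receptor neuropilin 1, ranged over 93.9 to 127 CPM in minusFoxp3 and 169 to 278 CPM in plusFoxp3 libraries. Cd83, a surface protein of activated lymphocytes, ranged over 43.3 to 58.0 CPM in minusFoxp3 and 99.6 to 147 CPM in plusFoxp3 libraries. Entpd1, the ectoenzyme CD39 that degrades extracellular ATP, overlapped by the highest minusFoxp3 library, with 21.3 to 37.1 CPM in minusFoxp3 and 36.9 to 57.3 CPM in plusFoxp3 libraries (log2 fold change 0.84 ± 0.15 (SE), adjusted p = 0.022). Fgl2 and Ebi3, which encode a secreted fibrinogen-like protein and a subunit of interleukin-35, had log2 fold changes of 2.31 and 2.43. Members outside these calls included 2 that mark Treg cells widely. Ctla4, the inhibitory receptor that removes CD80 and CD86, was at 239.5, 299.8, 391 and 403 CPM in minusFoxp3 and 527, 379.7, 590.0 and 371 CPM in plusFoxp3 libraries (log2 fold change 0.55 ± 0.18 (SE), adjusted p = 0.16), and Ikzf2, which encodes Helios, was at 255, 147, 163 and 169.7 CPM in minusFoxp3 and 186, 208, 278 and 300.4 CPM in plusFoxp3 libraries (log2 fold change 0.44 ± 0.19 (SE), adjusted p = 0.31). The list held 12 calls, all higher, without both plusFoxp3 replicates 1, and 12 without day 28 minusFoxp3 replicate 2.

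**Figure D2:**
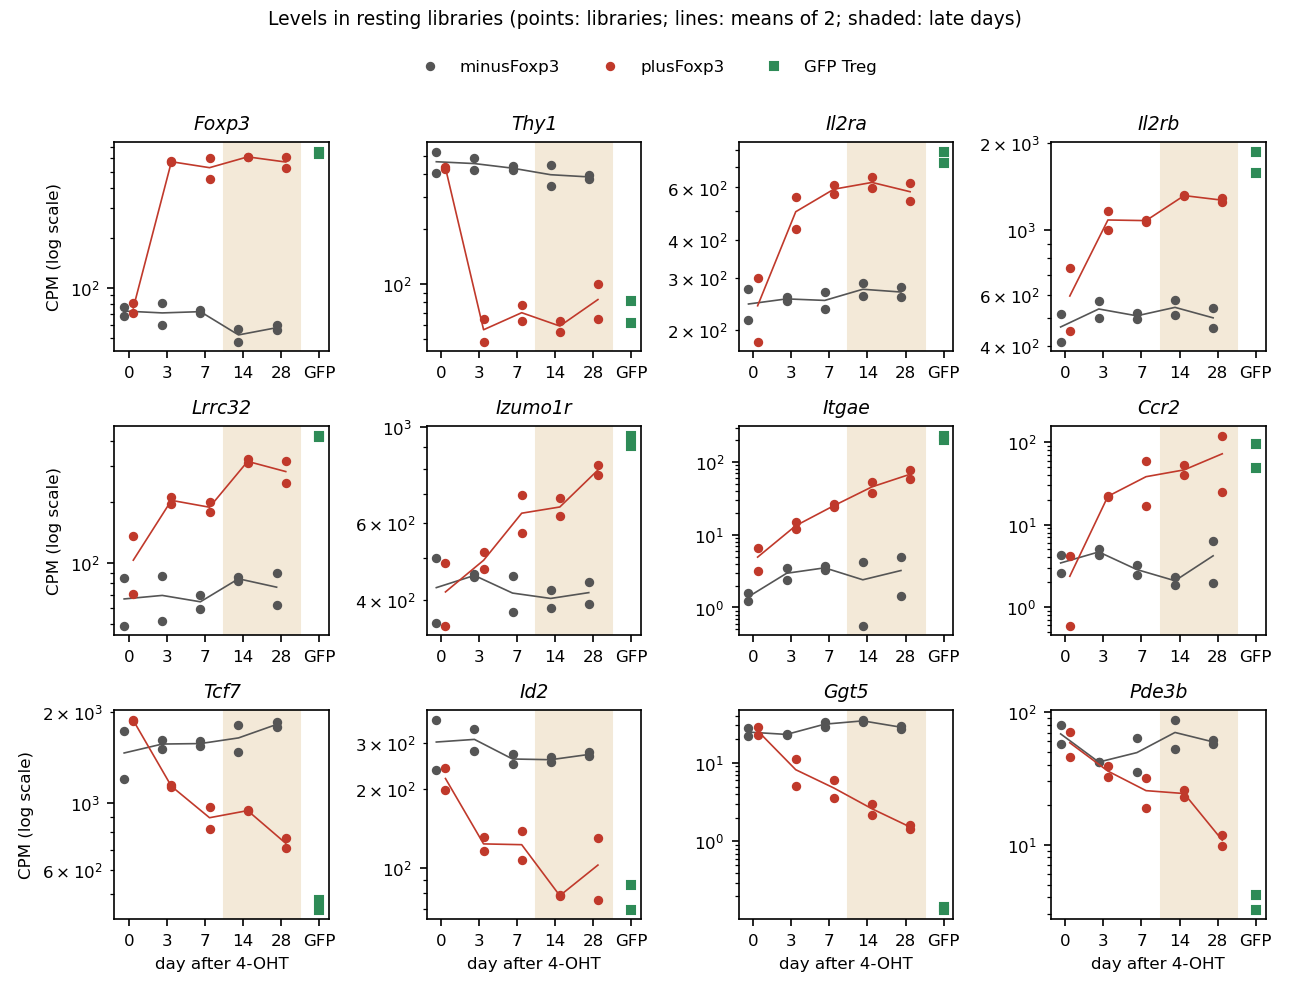
CPM (y axis, log scale) of 12 genes in resting libraries by day after 4-OHT (x axis), with the late days shaded; points are single libraries, lines join the means of 2 libraries, grey is minusFoxp3, red plusFoxp3 and green squares GFP Treg. Foxp3 and Thy1 separate the groups at every day from 3 on, while Itgae, Ggt5 and Pde3b at day 28 still lie between minusFoxp3 and GFP Treg levels.

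Genes that the study names for their response to degradation of Foxp3, in samples other than these, were taken here as 2 further lists, 7 as activated and 4 as repressed. The lists were drawn up with earlier results of these libraries known, so their counts are not independent evidence of a direction. Of the 7 genes of the first list, 5 were called higher and 1 lower. Tnfrsf4, the costimulatory receptor OX40, was at 299, 240.1, 266 and 234 CPM in minusFoxp3 and 496, 368, 597 and 459 CPM in plusFoxp3 libraries (log2 fold change 0.92 ± 0.14 (SE), adjusted p = 0.0098). Tnfrsf18, which encodes the receptor GITR, missed the threshold at 357, 218, 246 and 231 CPM in minusFoxp3 and 404, 357, 439 and 405 CPM in plusFoxp3 libraries, with a log2 fold change of 0.66 ± 0.15 (SE), adjusted p = 0.057. Tnfsf8, which encodes CD30 ligand and which the study names as sensitive to degradation without calling it activated, was the called gene of this list that fell, at 175, 195, 216 and 199 CPM in minusFoxp3 and 103, 97.4, 86.6 and 89.1 CPM in plusFoxp3 libraries (log2 fold change -1.02 ± 0.11 (SE), adjusted p = 0.0021). Tnfrsf4 lost its call without day 28 minusFoxp3 replicate 1 or 2.

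The genes with the largest rises were nearly silent in minusFoxp3 cells. Klrg1, an inhibitory receptor of late effector cells, was at 0.0432, 0, 0.105 and 0 CPM in minusFoxp3 and 2.99, 0.831, 13.8 and 4.99 CPM in plusFoxp3 libraries (log2 fold change 7.02 ± 0.81 (SE), adjusted p = 0.0030), on 8 read pairs in the minusFoxp3 libraries together and 1052 in the plusFoxp3 libraries. Gm6637, a predicted gene beside Klrg1 (chromosome 6, 122272623 to 122273004), had 0.0216, 0, 0.123 and 0 CPM in minusFoxp3 and 2.82, 1.93, 19.4 and 6.04 CPM in plusFoxp3 libraries, a pattern like that of its neighbour. Gzmb, which encodes the cytotoxic protease granzyme B, was at 0.346, 0.0216, 0.0175 and 0.115 CPM in minusFoxp3 and 4.20, 2.92, 23.3 and 4.05 CPM in plusFoxp3 libraries (log2 fold change 5.87 ± 0.95 (SE), adjusted p = 0.016). Mmp9, a matrix metalloproteinase, was at 0.0216, 0.129, 0.0351 and 0.0693 CPM in minusFoxp3 and 1.32, 2.05, 11.8 and 1.74 CPM in plusFoxp3 libraries (log2 fold change 5.81 ± 0.83 (SE), adjusted p = 0.0081). In these 4 genes day 28 replicate 1, the library that stood apart, was the highest. Genes of largest change were named only if their groups did not overlap, so that separation is not a result. Gzmb lost its call in 3 of the 8 fits that left out a library (day 14 minusFoxp3 replicate 2 and either day 28 minusFoxp3 replicate) and Mmp9 in 1 (day 28 minusFoxp3 replicate 2). Without both plusFoxp3 replicates 1 their adjusted p-values in edgeR's test were 0.047 and 0.017. Atp6v0d2, a subunit of the vacuolar proton pump, had 0.0432, 0.410, 1.12 and 0.600 CPM in minusFoxp3 and 8.43, 10.6, 11.4 and 5.79 CPM in plusFoxp3 libraries, and here day 28 replicate 1 did not stand out. Tigit, an inhibitory receptor for CD155, had 0.281, 1.32, 2.68 and 3.00 CPM in minusFoxp3 and 20.7, 10.1, 62.5 and 17.4 CPM in plusFoxp3 libraries (log2 fold change 4.05 ± 0.52 (SE), adjusted p = 0.0049).

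Receptors for homing and adhesion changed in both directions, mostly upward. Of 36 tested, 7 rose and 1 fell (22.2% called). Itgae, the alpha chain of the integrin CD103 that binds E-cadherin on epithelium, was at 0.562, 4.25, 5.00 and 1.45 CPM in minusFoxp3 and 53.3, 38.1, 77.5 and 58.9 CPM in plusFoxp3 libraries (log2 fold change 4.36 ± 0.55 (SE), adjusted p = 0.0045). Ccr2, a receptor for monocyte chemoattractants, was at 2.31, 1.85, 6.40 and 1.96 CPM in minusFoxp3 and 52.4, 40.1, 120.0 and 25.2 CPM in plusFoxp3 libraries (log2 fold change 4.32 ± 0.51 (SE), adjusted p = 0.0035). Ccr10, a receptor for chemokines of skin and mucosa, was at 0.0432, 0.108, 0.123 and 0.139 CPM in minusFoxp3 and 2.18, 1.86, 11.1 and 5.23 CPM in plusFoxp3 libraries (log2 fold change 5.48 ± 0.42 (SE), adjusted p = 0.00046). All 3 went from a few CPM or less to levels at least 3 times those of any minusFoxp3 library. They were named among genes of largest change, for which groups that did not overlap were a condition. Cxcr3, which follows interferon-induced chemokines, had 1.04 to 14.0 CPM in minusFoxp3 and 26.7 to 108 CPM in plusFoxp3 libraries, and Cxcr5, which leads cells to follicles, had 5.59 to 19.0 CPM in minusFoxp3 and 28.5 to 63.7 CPM in plusFoxp3 libraries. Itgb1, the integrin beta 1 chain, rose with a log2 fold change of 0.98 while its partner Itga4 fell, at 274, 285, 307 and 320.3 CPM in minusFoxp3 and 178, 174, 131 and 163 CPM in plusFoxp3 libraries (log2 fold change -0.83 ± 0.13 (SE), adjusted p = 0.011). Of these genes Itgae and Cxcr3 belong to the 6 genes of activated cells whose summed level was higher in plusFoxp3 libraries, and the part of that difference in these results was not tested. Without both plusFoxp3 replicates 1, 5 members were called higher and 1 lower.

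Among the 4 genes taken as repressed, 3 fell and none rose. Tcf7, which encodes TCF1, a factor of naive and stem-like T cells, was at 1478, 1808, 1858 and 1783 CPM in minusFoxp3 and 942, 945, 707 and 763 CPM in plusFoxp3 libraries (log2 fold change -1.01 ± 0.13 (SE), adjusted p = 0.0053). Id2, an inhibitor of E proteins, was at 253, 264, 275 and 266 CPM in minusFoxp3 and 78.9, 77.9, 129.7 and 75.4 CPM in plusFoxp3 libraries (log2 fold change -1.52 ± 0.15 (SE), adjusted p = 0.0015). Sox4, a transcription factor of the same HMG-box superfamily as TCF1, was at 107, 70.3, 74.5 and 78.0 CPM in minusFoxp3 and 47.1, 46.5, 17.5 and 23.9 CPM in plusFoxp3 libraries (log2 fold change -1.35 ± 0.23 (SE), adjusted p = 0.020), and lost its call without either day 28 minusFoxp3 replicate. The plusFoxp3 libraries lay below the minusFoxp3 libraries throughout, with Id2 least low in day 28 replicate 1. Il7r, the receptor of interleukin-7, was not called, at 98.8, 186, 243 and 196 CPM in minusFoxp3 and 138, 118, 124 and 95.6 CPM in plusFoxp3 libraries (log2 fold change -0.53 ± 0.24 (SE), adjusted p = 0.31). Here day 14 minusFoxp3 replicate 1 was as low as the plusFoxp3 libraries.

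Of 26 genes of naive and quiescent cells, 3 fell (11.5%, Tcf7, Sox4 and Tdrp), none rose, and the median log2 fold change was -0.24. Without day 14 minusFoxp3 replicate 1 the list held 5 calls. Ccr7, the lymph node homing receptor of naive cells, was at 1304, 1159, 1334 and 1143 CPM in minusFoxp3 and 1011, 886, 761 and 784 CPM in plusFoxp3 libraries and missed the threshold (log2 fold change -0.48 ± 0.11 (SE), adjusted p = 0.055), although its groups did not overlap. Lef1, the close relative of Tcf7, was at 594, 498, 514 and 491 CPM in minusFoxp3 and 382, 449.7, 324 and 401 CPM in plusFoxp3 libraries (log2 fold change -0.38 ± 0.11 (SE), adjusted p = 0.13). Over 65 transcription factors of T cells, 3 fell, the same Tcf7, Id2 and Sox4, and 1 rose. That one was Prdm1, which encodes BLIMP1, at 8.06, 13.3, 13.2 and 15.1 CPM in minusFoxp3 and 37.4, 24.8, 40.4 and 19.0 CPM in plusFoxp3 libraries (log2 fold change 1.35 ± 0.27 (SE), adjusted p = 0.040). Prdm1 lost its call in 7 of the 8 fits without one library, all but that without day 28 plusFoxp3 replicate 2. Foxo1, Gata3 and Tbx21, factors of homing and of helper lineages, were not called, with log2 fold changes of 0.20, 0.50 and 1.25.

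Among the genes of largest fall, Ggt5, a cell-surface enzyme that cleaves glutathione and leukotriene C4, was at 33.1, 35.4, 29.8 and 27.1 CPM in minusFoxp3 and 2.18, 3.04, 1.61 and 1.45 CPM in plusFoxp3 libraries (log2 fold change -3.91 ± 0.19 (SE), adjusted p = 3.1e-05). Fst, which encodes the activin antagonist follistatin, was at 1.27, 4.38, 6.33 and 4.13 CPM in minusFoxp3 and 0.0640, 0.135, 0.286 and 0.310 CPM in plusFoxp3 libraries (log2 fold change -4.36 ± 0.47 (SE), adjusted p = 0.0021). Mstn, which encodes the TGF-beta family member myostatin, was at 6.39, 20.5, 37.9 and 25.1 CPM in minusFoxp3 and 4.46, 1.80, 1.85 and 1.26 CPM in plusFoxp3 libraries (log2 fold change -3.16 ± 0.59 (SE), adjusted p = 0.030). Groups that did not overlap were a condition for naming these 3, so that separation is not a result. Pcsk1, a prohormone convertase, had 3.32 to 6.84 CPM in minusFoxp3 and 0.0621 to 1.23 CPM in plusFoxp3 libraries, Lypd6b, a membrane-anchored protein of the Ly6 superfamily, had 7.33 to 13.8 CPM in minusFoxp3 and 0.939 to 1.95 CPM in plusFoxp3 libraries, and Abhd15, a hydrolase-like protein, had 2.05 to 7.29 CPM in minusFoxp3 and 0.396 to 1.19 CPM in plusFoxp3 libraries. A530021J07Rik, a gene model on chromosome 7 without a known product, was at 68.9, 43.7, 35.6 and 39.2 CPM in minusFoxp3 and 3.91, 4.54, 1.85 and 1.88 CPM in plusFoxp3 libraries (log2 fold change -3.97 ± 0.21 (SE), adjusted p = 4.1e-05). It overlaps 5930435M05Rik, which fell with it by 4.33 on the log2 scale, and unstranded counting cannot separate them. Mstn and Abhd15 each lost their call in 6 of the 8 fits that left out a library, kept without day 14 minusFoxp3 replicate 1 and day 14 plusFoxp3 replicate 1. Pcsk1 lost its call in 4, without either day 28 minusFoxp3 or either day 14 plusFoxp3 replicate.

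Genes of the cyclic AMP and adenosine pathway, which restrains T cell activation, gave 4 calls in 25 (16%). Pde3b, a phosphodiesterase that degrades cyclic AMP, was at 52.8, 87.4, 61.3 and 57.7 CPM in minusFoxp3 and 22.8, 25.7, 9.78 and 11.8 CPM in plusFoxp3 libraries (log2 fold change -1.95 ± 0.24 (SE), adjusted p = 0.0042). Its levels at day 28 lay below those at day 14, though the difference between the days did not pass. Pde7a, a second phosphodiesterase, had 44.4 to 66.5 CPM in minusFoxp3 and 23.1 to 33.7 CPM in plusFoxp3 libraries (log2 fold change -0.93), and Ptger2, the prostaglandin E2 receptor that raises cyclic AMP, had 51.2 to 58.5 CPM in minusFoxp3 and 34.6 to 39.2 CPM in plusFoxp3 libraries (log2 fold change -0.54). Entpd1 was the member that rose. Pde7a and Entpd1 lost their call in 4 of the 8 fits without one library and Ptger2 in 7, and without both plusFoxp3 replicates 1 the list held 1 call, Pde3b.

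Of 19 effector cytokine genes tested, 3 fell and 1 rose (21.1% called). Il4, the signature cytokine of type 2 help, was at 1.99, 1.90, 4.19 and 2.33 CPM in minusFoxp3 and 0.640, 0.309, 0.903 and 0.165 CPM in plusFoxp3 libraries (log2 fold change -2.29 ± 0.48 (SE), adjusted p = 0.046). Cd40lg, through which helper cells activate B cells, was at 60.4, 96.0, 88.6 and 114 CPM in minusFoxp3 and 51.3, 50.3, 47.4 and 45.1 CPM in plusFoxp3 libraries (log2 fold change -0.83 ± 0.18 (SE), adjusted p = 0.0496). Both lost their call in 7 of the 8 fits that left out a library, Il4 in all but that without day 28 plusFoxp3 replicate 2 and Cd40lg in all but that without day 14 minusFoxp3 replicate 1. Ccl5, a chemokine stored by memory and effector cells, rose from 0.0216, 0.172, 0.228 and 0.185 CPM to 1.77, 1.51, 6.06 and 3.39 CPM, a log2 fold change of 4.34 ± 0.45 (SE), adjusted p = 0.0018. Il2 was at 2.80 to 4.08 CPM in minusFoxp3 and 2.85 to 4.27 CPM in plusFoxp3 libraries and Ifng at 0.684 to 3.42 CPM in minusFoxp3 and 1.82 to 9.60 CPM in plusFoxp3 libraries, and neither was called. Il10, the suppressive cytokine, was at 0.734, 5.28, 3.79 and 5.27 CPM in minusFoxp3 and 14.2, 5.97, 26.3 and 6.56 CPM in plusFoxp3 libraries (log2 fold change 1.83 ± 0.59 (SE), adjusted p = 0.16), with the 2 plusFoxp3 replicates 1 the highest.

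Of 40 genes of cytokine receptors and their signalling, 6 rose, both interleukin-2 receptor chains among them, and 1 fell (17.5% called). Ifngr1, the ligand-binding chain of the interferon-gamma receptor, was at 235, 235, 248 and 219.8 CPM in minusFoxp3 and 341, 333, 378 and 354 CPM in plusFoxp3 libraries (log2 fold change 0.63 ± 0.08 (SE), adjusted p = 0.0045). Il18r1, the interleukin-18 receptor, was at 48.3, 45.3, 85.3 and 69.8 CPM in minusFoxp3 and 21.8, 16.2, 23.4 and 13.7 CPM in plusFoxp3 libraries (log2 fold change -1.64 ± 0.22 (SE), adjusted p = 0.0062), and Il1rl1, the interleukin-33 receptor ST2, was at 0.517 to 1.73 CPM in minusFoxp3 and 2.58 to 8.52 CPM in plusFoxp3 libraries (log2 fold change 2.10, adjusted p = 0.029). Il12rb1, which interleukin-12 and interleukin-23 receptors share, and Socs1, the feedback inhibitor of cytokine signals, rose with log2 fold changes of 1.12 and 0.37. Among 16 TNF receptors 2 were called, Tnfrsf4 and Tnfrsf9, the second of which encodes 4-1BB and was at 141, 107, 89.5 and 94.5 CPM in minusFoxp3 and 209.7, 153, 221 and 186 CPM in plusFoxp3 libraries (log2 fold change 0.89 ± 0.15 (SE), adjusted p = 0.021). Among 27 coinhibitory and costimulatory genes 2 were called, Tigit and Pdcd1lg2, which encodes PD-L2 and was at 5.10, 4.89, 6.84 and 5.47 CPM in minusFoxp3 and 11.7, 11.001, 25.2 and 17.3 CPM in plusFoxp3 libraries (log2 fold change 1.53 ± 0.19 (SE), adjusted p = 0.0045). Tnfrsf9 lost its call in 5 of the 8 fits without one library, and without both plusFoxp3 replicates 1 none of the 16 TNF receptors was called. The cytokine receptor list held 4 calls without day 14 minusFoxp3 replicate 2, either day 28 minusFoxp3 replicate or day 28 plusFoxp3 replicate 1, and the coinhibitory list 5 without day 28 plusFoxp3 replicate 2.

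In 42 genes of the proximal steps of T cell receptor signalling, Cd4 and Themis fell and Sh2d1a rose (7.14% called, against 1.97% of all genes tested), and the median log2 fold change was -0.03. Sh2d1a, which encodes the adaptor SAP, was at 52.5 to 67.3 CPM in minusFoxp3 and 93.0 to 147 CPM in plusFoxp3 libraries, and Themis, a thymocyte-selection protein bound to Grb2, was at 94.01 to 119.9 CPM in minusFoxp3 and 52.2 to 74.9 CPM in plusFoxp3 libraries. In 36 genes that respond to T cell receptor stimulation, 2 fell (5.56%), none rose and 7 had a positive sign, with a median log2 fold change of -0.43. The called genes were Btg1, an antiproliferative factor of quiescent cells, at 2529 to 2862 CPM in minusFoxp3 and 1718 to 2139.9 CPM in plusFoxp3 libraries, and Rgs1, a brake on chemokine receptors, at 688 to 905 CPM in minusFoxp3 and 553 to 606 CPM in plusFoxp3 libraries. Both lost their call in most fits without one library (6 and 7 of 8), and neither was called without both plusFoxp3 replicates 1. The proximal list held 5 calls without day 14 minusFoxp3 replicate 1 and 1 without either day 28 minusFoxp3 replicate.

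**Figure D3:**
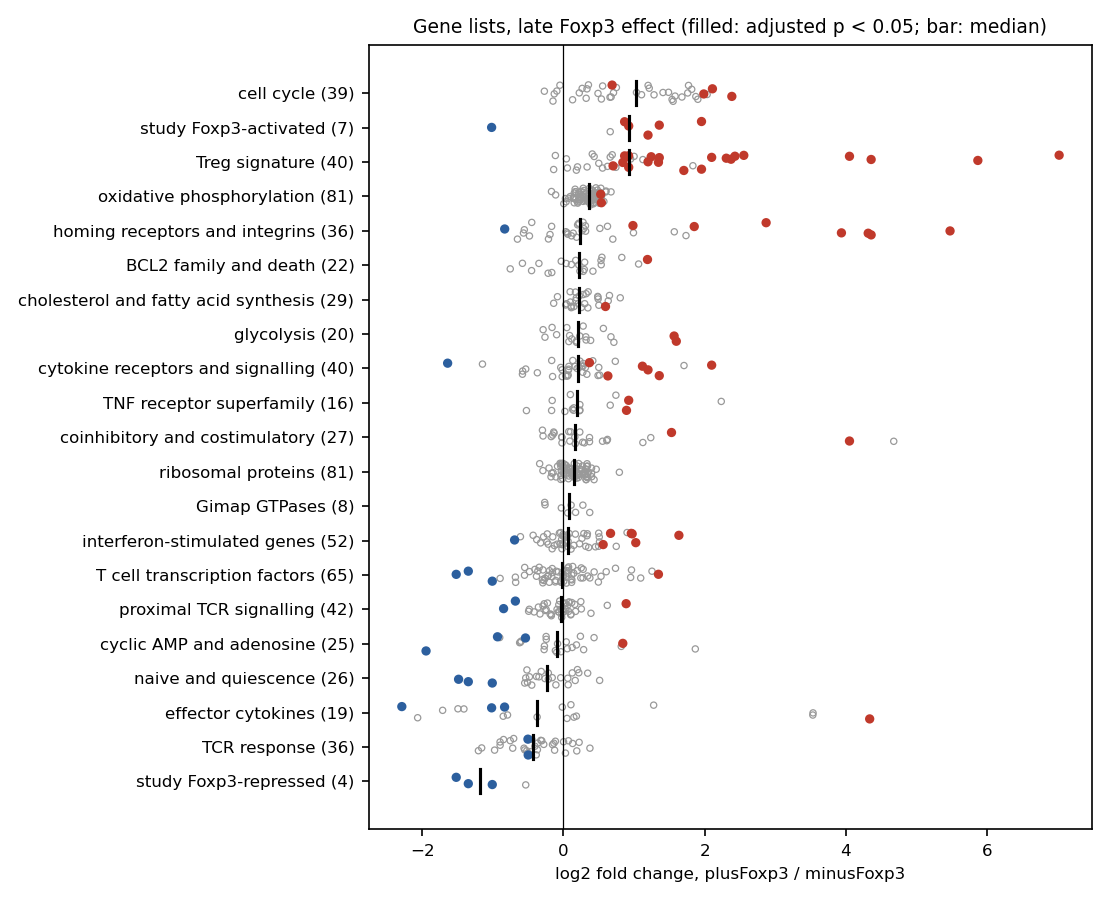
Log2 fold change of plusFoxp3 over minusFoxp3 cells (x axis) for every tested member of 21 gene lists (y axis, number tested in brackets, ordered by median); filled points passed an adjusted p of 0.05 (red higher, blue lower), open points did not, and black bars are medians. The Treg signature holds 21 filled points, all to the right, and the cell cycle list has the highest median of those plotted, 1.03, with 4 filled points of 39.

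Metabolic and housekeeping lists had from no calls to 10% of members called, against 1.97% of all genes tested. Slc2a3, the glucose transporter GLUT3, was at 34.3, 52.6, 42.0 and 52.2 CPM in minusFoxp3 and 112, 128, 131 and 149.6 CPM in plusFoxp3 libraries (log2 fold change 1.57 ± 0.15 (SE), adjusted p = 0.0015) and Hk2, hexokinase 2, at 1.12 to 2.51 CPM in minusFoxp3 and 3.19 to 7.51 CPM in plusFoxp3 libraries (log2 fold change 1.60), and these were the 2 calls among 20 glycolysis genes. Hk2 lost its call in 7 of the 8 fits without one library. Oxidative phosphorylation had 2 calls in 81 (2.47%, near the share of all genes), Cox6c and Ndufb8, subunits of complexes IV and I. Of the 81, 79 had a positive sign, and the median log2 fold change was 0.36, against 0.01 over all genes. In 29 genes of cholesterol and fatty acid synthesis, Mvd rose, at 30.6 to 39.01 CPM in minusFoxp3 and 43.9 to 52.2 CPM in plusFoxp3 libraries, and 27 had a positive sign. None of 81 ribosomal protein genes and none of 8 Gimap GTPase genes was called, with medians of 0.15 and 0.08. Gimap3 and Gimap4, the most abundant of the latter, had log2 fold changes of -0.03 and 0.17, and the ribosomal Rpl4 and Rplp0 had -0.08 and 0.01. Cox6c, Ndufb8 and Mvd lost their calls without both plusFoxp3 replicates 1. Oxidative phosphorylation held 14 calls without day 14 minusFoxp3 replicate 1, none without any other 1 minusFoxp3 library or either plusFoxp3 replicate 1, and 1 and 4 without day 14 and day 28 plusFoxp3 replicate 2.

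Interferon-stimulated genes had 6 higher and 1 lower call in 52 (13.5%), with a median log2 fold change of 0.06. Ly6e and Ly6a, surface proteins of the Ly6 cluster, were at 1742, 1917, 1592 and 1399 CPM in minusFoxp3 and 2593, 3052, 3629 and 3382 CPM in plusFoxp3 libraries and at 98.2, 119, 135 and 80.6 CPM in minusFoxp3 and 221, 265, 539 and 334 CPM in plusFoxp3 libraries. Their log2 fold changes were 0.97 ± 0.13 (SE), adjusted p = 0.0049 and 1.64 ± 0.23 (SE), adjusted p = 0.0080. Ifi27l2a, a mitochondrial protein induced by interferon, was at 386, 416, 423 and 390.3 CPM in minusFoxp3 and 688, 673, 941 and 765 CPM in plusFoxp3 libraries (log2 fold change 0.96 ± 0.10 (SE), adjusted p = 0.0016). The guanylate-binding protein genes Gbp3 and Gbp7 rose with log2 fold changes of 1.02 and 0.56, and Slfn1, a Schlafen gene linked to quiescence, fell by 0.69. Paralogous genes of the Ly6 and Gbp families can share reads, which limits what is known of each. The list held 4 calls without either day 28 minusFoxp3 replicate or day 14 plusFoxp3 replicate 1. Of 22 genes of the BCL2 family and cell death, 1 was called (4.55%, against 1.97% of all genes tested). It was Bcl2l1, which encodes the survival protein BCL-XL, at 30.2, 29.2, 34.1 and 32.3 CPM in minusFoxp3 and 74.2, 57.7, 82.7 and 61.7 CPM in plusFoxp3 libraries (log2 fold change 1.18 ± 0.12 (SE), adjusted p = 0.0018).

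Cell cycle genes were highest in both plusFoxp3 replicates 1. The list had a median log2 fold change of 1.03, the highest of the 21 lists plotted, with 34 of 39 positive, and 4 calls (Ccnb2, Birc5, Plk1 and E2f2). Ccnb2, the mitotic cyclin B2, was at 10.3, 6.88, 12.5 and 7.69 CPM in minusFoxp3 and 63.7, 14.9, 83.5 and 30.3 CPM in plusFoxp3 libraries (log2 fold change 2.39 ± 0.45 (SE), adjusted p = 0.032). Plk1, the mitotic polo-like kinase, was at 4.62, 5.41, 8.57 and 5.82 CPM in minusFoxp3 and 30.9, 9.20, 38.9 and 15.0 CPM in plusFoxp3 libraries (log2 fold change 1.99 ± 0.39 (SE), adjusted p = 0.037). Mki67, the common marker of proliferation, was at 10.04, 13.8, 18.0 and 11.5 CPM in minusFoxp3 and 60.4, 16.3, 72.7 and 27.0 CPM in plusFoxp3 libraries and was not called (log2 fold change 1.76 ± 0.41 (SE), adjusted p = 0.065). In these 3 genes replicate 1 of plusFoxp3 was higher than replicate 2 at both days. The summed CPM of the list was 2561 to 2933 in minusFoxp3 libraries, 4249 and 4270 in plusFoxp3 replicates 1 and 2708 and 2949 in replicates 2, and 3272 and 2912 in GFP Treg cells. In plusFoxp3 replicates 1 and 2 it was 4210.5 and 3665 at day 3 and 4259 and 3150 at day 7. MinusFoxp3 libraries of those days had 2724 to 3031. Untreated plusFoxp3 replicates 1 and 2 had 3375 and 2581, and untreated minusFoxp3 3026 and 2696. None of the 39 was called without both plusFoxp3 replicates 1, nor without any 1 minusFoxp3 library or either plusFoxp3 replicate 1, whereas 10 were called without day 14 and 9 without day 28 plusFoxp3 replicate 2.

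**Figure D4:**
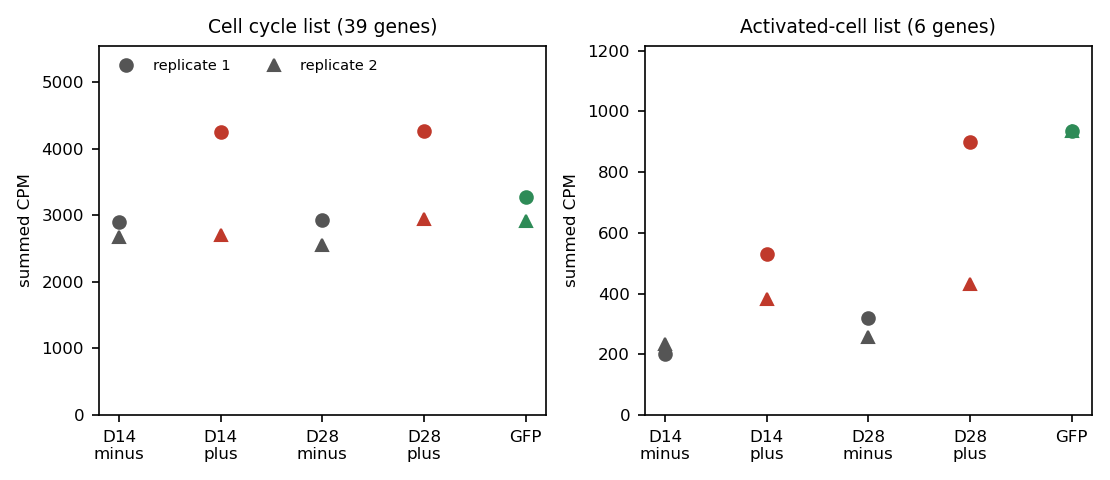
Summed CPM (y axis) of the 39 cell cycle genes (left) and of 6 genes of activated cells (right) in each late resting library and in GFP Treg cells; circles are replicate 1, triangles replicate 2, grey minusFoxp3, red plusFoxp3 and green GFP Treg. In the left panel both plusFoxp3 replicates 1 (4249 and 4270) lie above all other libraries, and day 28 replicate 1 reaches 899 in the right panel against at most 320 in minusFoxp3 libraries.

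No gene was called as changing its response between day 14 and day 28. The test of that difference covered 20414 genes (0% called), with 877 at an unadjusted p under 0.05 in edgeR, and DESeq2 called 7. Each day alone has 2 libraries per group and called few genes, 8 at day 14 (0.0396% of those tested, 0.0148% higher and 0.0247% lower) and 28 at day 28 (0.136%, 0.0632% higher and 0.0729% lower). Those of day 14 were Foxp3, Lrrc32, Ccr2, Thy1, Gm39323, A530021J07Rik, Ggt5 and Id2. All 8 had the same direction at day 28, where 5 were called, and all 28 of day 28 had the same direction at day 14. Of the genes called over both days, 248 of 259 higher and 142 of 144 lower genes had their direction at each day, with median log2 fold changes of 1.25 and 1.53 for the higher genes at days 14 and 28 and -1.12 and -1.17 for the lower. These genes were chosen on the same libraries. At day 28 the split of 13 higher and 15 lower became 4 and 13 with RLE size factors.

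Most late genes had their direction at days 3 and 7, and fewer of them did before treatment. Between untreated plusFoxp3 and minusFoxp3 cells edgeR called 1 gene, Esr1 (0.00486%), with 1756 at an unadjusted p under 0.05. Of the 259 late higher genes, 257 were tested there and 144 were above 0, and of 143 late lower genes 84 were below 0. Of all genes tested in both, 50.8% were above 0 and 49.2% below 0 there. The untreated difference compares 4 libraries and the early one 8, so their numbers of calls are not alike. At days 3 and 7, in libraries not shared with the late contrast, 164 genes were called (0.797%, 0.588% higher and 0.209% lower). Of the 257 late higher genes tested there, 243 were above 0 and 47 were called higher (18.3%, against 0.601% of all genes tested in both), and of 143 late lower genes 128 were below 0 and 28 were called lower (19.6%, against 0.21%). None was called in the opposite direction. Of all genes tested in both, 48.9% were above 0 and 51.1% below 0 at days 3 and 7. Median log2 fold changes of the late higher and lower genes at days 3 and 7 were 0.74 and -0.64.

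Testing the late effect against the early one called no gene of 20465 (0%), with 1621 at an unadjusted p under 0.05, whereas DESeq2 called 76. The early and late values of some named genes, chosen on the late libraries, stand side by side here. Il2ra had log2 fold changes of 1.14 early and 1.20 late, Gzmb 5.84 and 5.87, and Thy1 -2.77 and -2.44. The next 3 were larger late, though no difference passed. Itgae had a log2 fold change of 2.55 ± 0.23 (SE), adjusted p = 0.00029 early and 4.36 late, Ggt5 -2.06 ± 0.26 (SE), adjusted p = 0.0051 early and -3.91 late, and Pde3b -0.55 ± 0.24 (SE), adjusted p = 0.48 early and -1.95 late. Against the genotype difference of untreated cells the late effect differed for 7 genes (0.0343%, 0.00981% higher and 0.0245% lower), Foxp3 and Cybb upward and Ggt5, A530021J07Rik, Prr5l, Thy1 and Gm39323 downward. Cybb, the catalytic subunit of the phagocyte NADPH oxidase, was at 1.86, 1.98, 4.22 and 7.60 CPM in minusFoxp3 and 11.7, 10.8, 29.9 and 21.9 CPM in plusFoxp3 libraries, and at 3.36 and 5.52 CPM in untreated minusFoxp3 and 1.96 and 2.26 CPM in untreated plusFoxp3 libraries (difference 3.46 ± 0.46 (SE), adjusted p = 0.036). Prr5l, which binds the kinase complex mTORC2, was at 29.1, 24.0, 30.6 and 29.2 CPM in minusFoxp3 and 8.86, 8.89, 5.26 and 5.19 CPM in plusFoxp3 libraries and at 18.3 and 26.9 CPM in untreated minusFoxp3 and 32.5 and 32.8 CPM in untreated plusFoxp3 libraries (difference -2.53 ± 0.29 (SE), adjusted p = 0.019). Leaving out single late libraries left 3 to 5 such genes, 3 without day 28 minusFoxp3 replicate 1 or either day 14 plusFoxp3 replicate and 4 without day 28 minusFoxp3 replicate 2 or day 28 plusFoxp3 replicate 1. Foxp3, Ggt5 and A530021J07Rik were called in all 8 of these fits, Cybb and Prr5l in 1 each, without day 28 minusFoxp3 replicate 2 and day 14 minusFoxp3 replicate 2.

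GFP Treg cells, which express Foxp3 from an intact allele, had mean levels further in the same direction for most called genes. Compared with untreated minusFoxp3 cells, 483 genes were called in them (2.35%, 1.39% higher and 0.952% lower), again in libraries that the late contrast did not use. Of 257 late higher genes, 254 were above 0 and 140 were called higher there (54.5%, against 1.42% of all genes tested in both), and of 143 late lower genes 137 were below 0 and 73 were called lower (51.0%, against 0.977%). None was called in the opposite direction. The mean CPM of GFP Treg cells lay beyond that of late plusFoxp3 cells, away from minusFoxp3, for 220 of the 259 higher and 103 of the 144 lower genes. The direct test between those cells, given below, called 10 of the 259 and 9 of the 144, against 0.21% of all genes tested. Dkk3, a secreted relative of Wnt inhibitors, went the other way, at 0.756, 0.625, 1.07 and 1.36 CPM in minusFoxp3 and 0.0427, 0.155, 0.0220 and 0.0827 CPM in plusFoxp3 libraries and 3.07 and 3.29 CPM in GFP Treg cells, and was named after its values were seen.

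**Figure D5:**
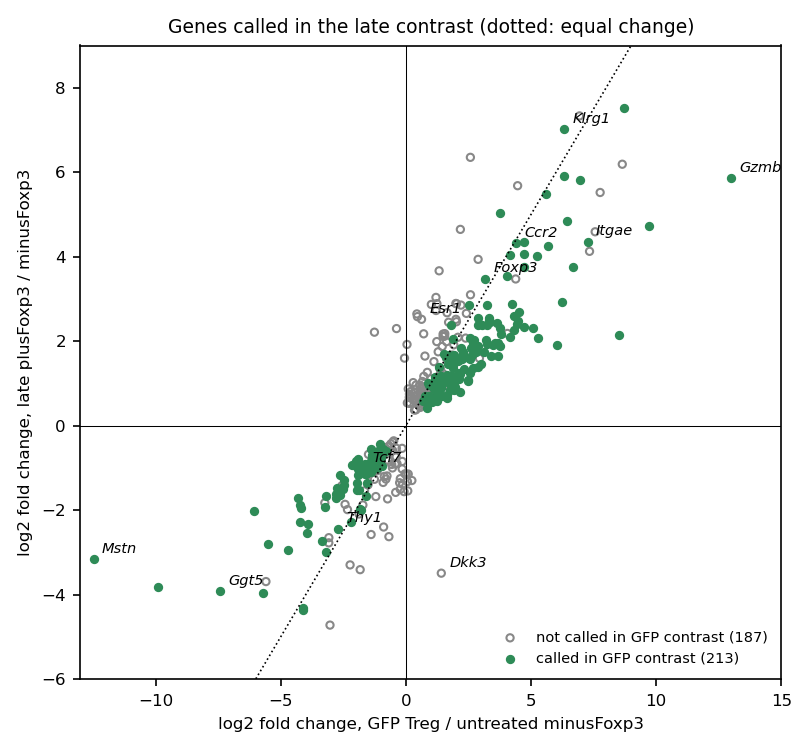
Log2 fold change of late plusFoxp3 over minusFoxp3 cells (y axis) against that of GFP Treg over untreated minusFoxp3 cells (x axis) for the 400 called genes tested in both; the contrasts share no library, green points were called in both and the dotted line marks equal change. Median changes are 1.56 late and 1.73 in the GFP contrast for higher genes, and -1.16 and -1.39 for lower genes. Dkk3 lies in a quadrant of opposite signs.

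A direct test between late plusFoxp3 and GFP Treg cells, fitted over all 22 resting libraries, called 43 genes (0.21%), 21 higher (0.102%) and 22 lower (0.107%) in GFP Treg cells. Sntg2, which encodes syntrophin gamma 2, was at 7.21, 5.03, 5.62 and 1.55 CPM in late plusFoxp3 and 0.0183 and 0 CPM in GFP Treg libraries, on 928 and 1 read pairs, a ratio of 513 with a 95% exact counting interval of 91.8 to 20285. That interval covers counting error only and leaves out the spread between libraries. Read pairs are not independent molecules. Scart2, a scavenger receptor family member of gamma-delta T cells, was at 14.0, 12.6, 7.11 and 3.17 CPM against 0 and 0.0775 CPM, on 1785 and 4 read pairs. Ggt5 remained at 2.18, 3.04, 1.61 and 1.45 CPM against 0.146 and 0.136 CPM in GFP Treg cells (log2 difference -3.80 ± 0.41 (SE), adjusted p = 0.00043). In all 4 late plusFoxp3 libraries Ggt5 lay between the minusFoxp3 and the GFP Treg level. Tcf7 and Pde3b were likewise lower still in GFP Treg cells, at 476 and 443 and 3.23 and 4.15 CPM, with log2 differences of -0.86 ± 0.15 (SE), adjusted p = 0.027 and -2.14 ± 0.32 (SE), adjusted p = 0.012. Ccl20, a chemokine of type 17 cells, was also called lower in GFP Treg cells, at 61.4, 22.7, 32.9 and 7.47 CPM against 0.804 and 0.174 CPM, although it was not called between late plusFoxp3 and minusFoxp3 cells.

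Genes higher in GFP Treg cells included some that had already risen. Slc35d1, a nucleotide-sugar transporter, was at 31.1, 30.6, 31.5 and 36.8 CPM in minusFoxp3 and 70.6, 70.1, 66.9 and 73.2 CPM in plusFoxp3 libraries and at 129 and 143 CPM in GFP Treg cells (log2 difference 0.94 ± 0.15 (SE), adjusted p = 0.015). Tent5a, a poly(A) polymerase, was at 17.1, 16.1, 15.95 and 22.2 CPM in minusFoxp3 and 26.7, 28.1, 31.7 and 33.3 CPM in plusFoxp3 libraries and at 63.8 and 62.4 CPM (log2 difference 1.07 ± 0.18 (SE), adjusted p = 0.021), and Tspan3, a tetraspanin, at 44.0, 39.1, 49.97 and 47.8 CPM in minusFoxp3 and 66.4, 55.3, 98.0 and 75.4 CPM in plusFoxp3 libraries and at 140.0 and 136 CPM (log2 difference 0.92 ± 0.15 (SE), adjusted p = 0.022). Each of the 3 thus stood at an intermediate level in all 4 late plusFoxp3 libraries. Itgae, at 199 and 231 CPM in GFP Treg cells, did not pass this test (log2 difference 1.94 ± 0.47 (SE), adjusted p = 0.16). The count of 43 fell to 12 without day 14 plusFoxp3 replicate 1, to 21 without day 14 plusFoxp3 replicate 2 and to 16 without day 28 plusFoxp3 replicate 1, and Sntg2, Scart2 and Ggt5 were called in all 8 such fits. Slc35d1 and Tent5a lost this call without either day 14 plusFoxp3 replicate or day 28 plusFoxp3 replicate 1, and Tspan3 without either day 14 plusFoxp3 replicate or day 28 plusFoxp3 replicate 2.

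In active cells, sorted with high CD44 from the same experiment, the same contrast called 1265 genes (6.13%), 531 higher (2.57%) and 734 lower (3.56%), in 8 other libraries with 40813000 to 52661412 read pairs. Of 257 late higher resting genes tested there, 226 were above 0 and 106 were called higher (41.2%, against 2.66% of all genes tested in both), and of 140 lower genes 122 were below 0 and 57 were called lower (40.7%, against 3.57%). Called in the opposite direction were Ly6d and Tspan13. A test of the difference between the states called 81 genes (0.392%), 49 above (0.237%) and 32 below 0 (0.155%). That count hung on single resting libraries, being 2 without day 14 minusFoxp3 replicate 1, 1 without day 28 minusFoxp3 replicate 1, 6 without day 28 minusFoxp3 replicate 2, 2 without day 14 plusFoxp3 replicate 1, and 171, 291 and 153 without day 14 minusFoxp3 replicate 2, day 14 plusFoxp3 replicate 2 and day 28 plusFoxp3 replicate 2. Il2rb was the gene called in all 8 of these fits.

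Il2rb in active cells was at 751, 759, 618 and 703 CPM in minusFoxp3 and 716, 664, 934 and 1001 CPM in plusFoxp3 libraries, so that active minusFoxp3 cells lay above resting ones and the groups overlapped, against the clear separation in resting cells (difference of log2 fold changes 1.13 ± 0.11 (SE), adjusted p = 0.0044). Slc35d1 was at 32.3, 32.9, 33.3 and 26.5 CPM in minusFoxp3 and 24.0, 26.2, 27.9 and 34.8 CPM in plusFoxp3 libraries in active cells, with no separation there (difference 1.31 ± 0.16 (SE), adjusted p = 0.022). Cd27, a costimulatory TNF receptor of naive and central memory cells, was at 129, 115, 102 and 139 CPM in minusFoxp3 and 326, 391.9, 328 and 518 CPM in plusFoxp3 libraries in active cells but at 522, 429, 451 and 441 CPM in minusFoxp3 and 485, 531, 535 and 538 CPM in plusFoxp3 libraries among resting cells (difference -1.47 ± 0.19 (SE), adjusted p = 0.022). Arl4c, a small GTPase, and Gimap6, a GTPase of lymphocyte survival, also rose in active cells and were not called in resting ones, with differences of -1.29 ± 0.17 (SE), adjusted p = 0.022 and -0.87 ± 0.12 (SE), adjusted p = 0.027. Apol7b, an apolipoprotein L family gene whose paralogs can share reads, fell in both states, further in active cells (difference 2.78 ± 0.35 (SE), adjusted p = 0.022). These 5 differences other than that of Il2rb each lost their call in 2 to 4 of the 8 fits that left out a resting library, among them that without day 28 minusFoxp3 replicate 1 each time.

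Promoters of the called genes were searched for 2 short motifs of forkhead factors, the family to which Foxp3 belongs, in windows of RefSeq (GRCm38.p6) that run from 250 bases before to 50 after each start. The motif TGTTTAC, read on both strands, was found in 3.45% of 174 higher and 5.56% of 90 lower genes that have a window, and in 3.24% of the 12109 tested genes with one. The motif TTTGTTT was found in 10.9%, 10% and 8.66%. Among named genes that were called, at least 3 have TGTTTAC or its reverse complement before the start. Matches so near the start that their flanking bases would run past it were left out. These stretches are shown, with the motif in capitals, as the places where the letters occur.
Pcsk1, chr13:75089803-75089829, plus strand: gatttgacgtGTAAACActcatttcta
Prdm1, chr10:44458963-44458989, minus strand: cgtagtgtggGTAAACAtggagggcaa
Btg1, chr10:96616787-96616813, plus strand: ggggtttattTGTTTACaagcagatta
Pcsk1 and Btg1 were lower and Prdm1 was higher in plusFoxp3 cells. A match is a description of letters in this window and says nothing of binding.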

How the data were processed

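RNA from sorted mouse CD4 T cells was sequenced, and the deposited files hold counts of read pairs per gene, made by the authors by alignment to mm39 and counting with featureCounts against GENCODE gene names, without strand, per the file headers. The methods state STAR and a filter on mapping quality, whereas the headers of these files show no such filter and the submitters' processing notes list Bowtie2. Of the 64 files, 44 of the reversible-allele experiment were read and 20 of a protein-degradation experiment were not used here.

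CPM were computed as counts over the library total, scaled by 1e6. Genes with a mean count of at least 10 were tested with edgeR 4.0.16 in R 4.3.3 (quasi-likelihood test, TMM scaling, day as a block, Benjamini-Hochberg adjustment over all genes tested) and called at an adjusted p under 0.05; standard errors are the log2 fold change over the square root of F. Differences between days, states and time were tested as contrasts in 1 fit. The 8 late libraries held 43302798 to 57049049 counts; with 2 replicates per group and day, described as independent biological replicates, p-values measure only the spread between these samples. Tested on counts simulated for the late contrast over 19995 genes, the fit recovered 64 of 100 2-fold and 94 of 100 4-fold changes, with 10 false calls in 168. The changed genes were drawn above a higher mean count than the tested minimum, and no day effect was simulated. Alternatives were RLE size factors, other count filters, DESeq2 1.42.0, a replicate block, thinned counts, no day term, all 22 resting libraries and leaving out libraries.

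Named genes were Foxp3 and Thy1; in each direction, the called genes of largest change whose groups did not overlap and whose mean count was at least 100, 10 at most; up to 4 called members of each list by adjusted p, or the 2 most abundant of a list with none; all members of the 2 study lists; and up to 3 called genes per direction for each difference. Other genes were chosen after their values were seen. The comparison, its members, the gene lists and this rule were chosen with earlier results of these data known. Promoter windows came from RefSeq (GRCm38.p6), which had 1 for 174 of 259 higher and 90 of 144 lower genes. Results for some genes are not reported here.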

Additional observations from a re-analysis of the deposited data

Results flagged for a closer look

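In 12 of 162 groups of 4 libraries checked over 81 named genes, 1 library lay far from the other 3 by Dixon's criterion, which chance alone gives in about 1 of 20 groups. In 5 of them it was plusFoxp3 replicate 1 at day 28: Foxp3 was at 526 CPM against 612 to 615, Gzmb at 23.3 against 2.92 to 4.20, Mmp9 at 11.8 against 1.32 to 2.05, and Pcsk1 at 1.23 against 0.0621 to 0.232. Id2 was likewise highest there, at 129.7 CPM, with 75.4 to 78.9 CPM in the other plusFoxp3 libraries. That library was also the one with haemoglobin transcripts and the highest sum of activated-cell genes, and the part of this in the 5 values was not tested. Day 28 minusFoxp3 replicate 1 stood out for Ccr2, at 6.40 CPM against 1.85 to 2.31. Day 14 minusFoxp3 replicate 1 stood out for Tdrp (108.5 CPM) and Mvd (39.01 CPM). The remaining 4 were Rgs1 in day 28 plusFoxp3 replicate 2 (606 CPM), Gimap4 in day 14 plusFoxp3 replicate 2 (1501 CPM), Slc35d1 in day 28 minusFoxp3 replicate 2 (36.8 CPM) and Cd27 in day 14 plusFoxp3 replicate 1 (485 CPM).

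Effects that differed between groups by a test of the difference itself were of 2 kinds. The late effect differed from the genotype difference of untreated cells for 7 genes, among them Foxp3 by 3.41, Cybb by 3.46, Ggt5 by -3.98, A530021J07Rik by -3.48 and Prr5l by -2.53 on the log2 scale. The effect in resting cells differed from that in active cells for 81 genes, among them Il2rb by 1.13, Slc35d1 by 1.31, Apol7b by 2.78, Cd27 by -1.47, Arl4c by -1.29 and Gimap6 by -0.87. Of these, Foxp3, Ggt5, A530021J07Rik and Il2rb kept their call in every fit that left out 1 late resting library.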

How the results depend on the processing

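Of 1598 recomputed values of named genes, 1346 kept their side of the threshold, 238 lost and 14 gained it, and 0 called values changed sign. Numbers of called genes moved more. Without a count filter, 1830 genes were called for the late effect (403 in the report), 207 for the difference between days, 158 at day 14 alone, 449 at day 28 alone, 346 for late minus early, 544 for late minus untreated, 1366 for resting minus active, 2951 in active cells, 1293 for GFP Treg and 844 for early cells against minusFoxp3, 237 between untreated genotypes and 560 for late plusFoxp3 against GFP Treg. DESeq2 called 1276, 7, 76, 196, 813 and 175 for the late effect, the difference between days, late minus early, late minus untreated, resting minus active and GFP Treg against late plusFoxp3. The cause was not tested. Of the 403 genes, 388 were called by DESeq2 and 400 without a filter. Contrasts from the fit of all 8 libraries gave 20 genes at day 14 and 105 at day 28, and RLE size factors gave 17 at day 28.

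With the replicate number as a block, 690 genes were called for the late effect, 401 of them among the 403, and 271 for resting minus active. Same-numbered libraries shared deviations with correlations of 0.0544 to 0.361 over 6 pairs of groups, so the numbers were not taken as pairs. Leaving out 1 library gave 159 to 400 genes for the late effect, 0 to 1 for late minus early, 3 to 5 for late minus untreated, 1 to 291 for resting minus active and 12 to 48 against GFP Treg. Without plusFoxp3 replicate 1 at both days, an alternative chosen after seeing the data, these were 151 for the late effect, 2 for late minus untreated, 14 for resting minus active and 6 against GFP Treg. With 2 libraries per group and day, a change under 2-fold was often not detectable, since 64 of 100 simulated 2-fold changes were recovered. Recovery at the lowest counts tested was not simulated.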

Other observations

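Some further gene families, chosen after their values were seen, are set beside the 1.27% of all genes tested that were called higher and the 0.705% called lower. Immunoglobulin heavy chain segments on chromosome 12 were higher in plusFoxp3 cells, with 7 of 11 tested called and none lower. Ighj3 and Ighd4-1 had 1 and 3 read pairs in the minusFoxp3 and 85 and 83 in the plusFoxp3 libraries together. Such segments passed the minimum mean count only through the plusFoxp3 libraries, so this filter in part sets the count of higher calls. Ighm, the mu constant region, was at 489, 608, 627 and 614 CPM in minusFoxp3 and 1018, 1091, 1611 and 1269.8 CPM in plusFoxp3 libraries and at 2123 and 2121 CPM in GFP Treg cells, and Ighj1, a joining segment, was at 0.0432, 0.280, 0.123 and 0.208 CPM in minusFoxp3 and 2.54, 2.46, 8.28 and 4.18 CPM in plusFoxp3 libraries. Among the B cell markers Cd79a, a chain of the B cell receptor complex, was at most 6.06 CPM in the 8 late libraries. Its partner chain Cd79b was at 15.5 to 21.3 CPM in minusFoxp3 and 14.2 to 30.1 CPM in plusFoxp3 libraries. Ighd, the delta constant region, was at 0.508 to 2.96 CPM in minusFoxp3 and 4.33 to 7.22 CPM in plusFoxp3 libraries. Of the 11 markers 8 had a positive sign, and Ighm alone was called. Their summed CPM, most of it Ighm, was 517 to 650.4 in minusFoxp3 and 1050.5 to 1665 in plusFoxp3 libraries. The part of B cells in these values was not tested. Joining and constant segments of the T cell receptor alpha locus gave 4 lower and no higher calls in 57, among them Trac. Trac was at 1552 to 1676 CPM in late plusFoxp3 libraries. It was at 1640 and 2086 CPM in untreated plusFoxp3 and 2142 and 2014 CPM in untreated minusFoxp3 libraries. In active cells its log2 fold change was 0.21 and not called. The difference between the states, -0.58, was called, though not in every fit without a single resting library. The Ly6 family on chromosome 15 had 6 higher and no lower calls in 11, the S100 calcium-binding proteins 3 higher in 11, the apolipoprotein L family 2 higher (Apol9a and Apol9b) and 2 lower (Apol7b and Apol7e) in 10, and the guanylate-binding proteins 2 higher (Gbp3 and Gbp7) and 1 lower (Gbp11) in 11. Ly6f, with 12 read pairs in the minusFoxp3 and 82 in the plusFoxp3 libraries, also passed the minimum mean count only through plusFoxp3. Segments and paralogs of these families can share reads, and single members are uncertain.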
